A study of Mus musculus with 100 samples.

Results

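The CC chemokine loci described here are ChIP-seq regions of mouse bone marrow-derived macrophages (BMDMs) and, for ERK1 and p300, also of osteoclast cultures. They are the regions that the deposited tables assign, by nearest transcription start site (TSS), to 10 genes: Ccl2, Ccl7, Ccl12, Ccl5, Ccl3, Ccl4, Ccl6, Ccl9, Ccl17 and Ccl22. The members were found by gene name in all 15 tables, which gave 892 of 610301 regions (0.146%), between 11 and 102 per table. Regions of different tables whose centres lay within 500 bp were treated as 1 site, which left 115 sites. Ccl2 had 161 of the regions, Ccl6 145, Ccl3 131, Ccl5 117, Ccl4 89, Ccl12 76, Ccl9 73, Ccl17 43, Ccl7 37 and Ccl22 20. Of the 892 regions, 233 lay within 2 kb of the listed TSS and 659 lay farther away.

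The wild-type BMDMs came from young adult C57BL/6 mice, and after serum starvation they received either vehicle (Veh) or KLA, the Toll-like receptor 4 agonist Kdo2 lipid A, for 6 h (the label of the p300 Veh libraries reads 0 h). In all, 8 proteins were precipitated in both states, namely the corepressor NCoR, its partner the histone deacetylase HDAC3, the NF-κB subunit p65, the AP-1 subunit Fosl2, the macrophage lineage factor PU.1, the coactivator PGC1β, the kinase ERK1 and the histone acetyltransferase p300. The ERK pathway inhibitor LY3214996 (ERKi) was given before KLA for NCoR and PGC1β. For PGC1β its control was DMSO, and the labels of the PGC1β DMSO libraries and of all ERKi libraries state no hours. The NCoR KLA libraries that the NCoR ERKi libraries are compared with are labelled 6 h. Several Veh labels, such as those of PGC1β and ERK1, state no hours either. The histone modification H3K27ac, acetylation of lysine 27 on histone H3 at active regulatory elements, was measured with the HDAC3 inhibitor RGFP966 or DMSO in wild-type cells, in NCoR flox/flox cells (WT) against NCoR flox/flox LysMCre cells (NKO), and in PGC1b flox/flox cells (Pgc1b flox) against PGC1b flox/flox, LysMCre cells (Pgc1b flox Cre). LysMCre drives recombination in myeloid cells. The descriptions of the flox, Cre and NKO libraries read C57Bl6 too. ERK1 and p300 were also mapped in bone marrow cells during osteoclast differentiation, as adherent precursors grown in M-CSF (day 0) and after RANKL was added to M-CSF (day 4). These libraries are titled WT and their descriptions read C57Bl6. Every group held 2 libraries, and nothing in the labels says whether these came from separate mice, so the p-values below measure only the spread between the libraries.

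CC chemokines are small secreted proteins that guide leukocytes through G protein-coupled receptors, and activated macrophages are a main source of them. Ccl2, Ccl7 and Ccl12 attract monocytes through CCR2. Ccl3, Ccl4 and Ccl5 are inflammatory chemokines that attract monocytes and T cells, and Ccl3, Ccl5, Ccl6 and Ccl9 act on CCR1. Ccl17 and Ccl22 attract T cells through CCR4. At many inflammatory genes the promoter and nearby enhancers lie in chromatin that PU.1 opens in resting macrophages, and NF-κB and AP-1 factors bind there after a Toll-like receptor is engaged. NCoR with HDAC3 is known mainly as a corepressor, while p300 acetylates histones at active elements.

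In GRCm38.p6, the assembly also called mm10, 8 of the genes lie on chromosome 11 in 2 groups. Ccl2 (82035577-82037452), Ccl7 (82045712-82047525) and Ccl12 (82101845-82103399) span 67.8 kb. Ccl5 (83525778-83530518), Ccl9 (83572917-83578636), Ccl6 (83587886-83593087), Ccl3 (83647843-83649378) and Ccl4 (83648624-83664683) span 138.9 kb. Ccl22 (94745684-94751388) and Ccl17 (94809380-94812038) span 66.4 kb of chromosome 8. The RefSeq Ccl4 gene overlaps Ccl3 and its regions were assigned from a TSS farther along, so the gene named for a region is a nearest-TSS label and not a target.

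Library totals ranged from 4.3 M to 21.5 M tags, and 2.79 to 52.8% of the tags fell in the regions of their table. Values are given as tags per 10 M (tags in the region scaled to a library of 10 M tags), in the order replicate 1, replicate 2. A region was called higher or lower at an adjusted p under 0.05 with a change of more than 2-fold (edgeR quasi-likelihood test). Macrophage marker genes (Csf1r, Adgre1, Cd68, Itgam, Spi1 and Mertk) all had an H3K27ac region within 2 kb of the TSS in the RGFP966 and Pgc1b tables, where 0 of 6 osteoclast markers and 0 of 6 markers of other bone marrow cells had one. In the NKO table, Csf1r and Adgre1 had none and 1 osteoclast marker, Ocstamp, had one. In bulk ChIP-seq, fewer cells carrying a bound site and less binding per cell cannot be told apart.

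After KLA, p65 binding rose at 67 of 79 member regions and fell at none, against 57.0% of all tested p65 regions higher and 5.43% lower. With DESeq2 the lower count was 1, and no member region had a negative change at an unadjusted p under 0.05. p300 rose at 64 of 99 and fell at 1 (all regions 42.1% higher, 12.9% lower). NCoR rose at 36 of 87 and fell at 9 (23.4% and 16.7%), and HDAC3 rose at 37 of 85 and fell at 4 (27.5% and 11.3%). PGC1β rose at 35 of 72 and fell at 1 (16.4% and 6.35%). ERK1 rose at 26 of 72 and fell at none (10.3% and 2.53%), Fosl2 rose at 16 of 59 and fell at none (11.4% and 4.19%), and PU.1 rose at 9 of 60 and fell at 1 (4.53% and 21.7%). For these counts of 0, DESeq2 gave 1 lower ERK1 region and 3 lower Fosl2 regions, and 1 and 2 regions respectively had a negative change at an unadjusted p under 0.05. With libraries scaled by their totals, the share of member regions higher was for each of the 8 proteins above the share over all regions, and the share lower was below it.

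The median log2 change of the members stood beside that of all regions as 2.51 against 1.46 for p65, 1.49 against 0.65 for p300, 0.74 against 0.10 for NCoR and 0.82 against 0.27 for HDAC3. It was 1.15 against 0.06 for PGC1β, 1.10 against 0.26 for ERK1, 0.88 against -0.14 for Fosl2 and 0.02 against -0.41 for PU.1. The positive p65 and p300 medians over all regions show a table-wide shift when libraries are scaled by their totals. Under TMM factors, which centre the tables, the median over all regions moved by -1.22 for p65, -0.52 for p300 and 0.42 for PU.1, and the member counts became 42 higher and 1 lower for p65, 48 and 6 for p300, and 18 and 0 for PU.1. The shares of all regions with TMM were 27.6% higher and 21.3% lower for p65, 32.7% and 23.9% for p300, and 9.13% and 10.6% for PU.1. The other 5 proteins gave 37 higher and 9 lower for NCoR, 33 and 7 for HDAC3, 33 and 2 for PGC1β, 23 and 0 for ERK1, and 22 and 1 for Fosl2, where the shares of all regions were 23.9% and 17.3%, 24.3% and 16.3%, 15.8% and 9.13%, 8.11% and 3.93%, and 19% and 9.68%. The Fosl2 count changed when any 1 of the 4 libraries was left out. It fell to 0 without either Veh library. It rose to 28 without KLA replicate 1 and to 26, of which 9 were lower, without KLA replicate 2. Leaving out 1 library moved 4 other counts by more than 1.5 times. The NCoR count of 45 fell to 26 without KLA replicate 1 and 23 without KLA replicate 2, and the HDAC3 count of 41 fell to 22 and 23 without Veh replicate 1 and 2. The PGC1β count of 36 fell to 19 and 22 without Veh replicate 1 and 2, and the ERK1 count of 26 fell to 16 and 14 without KLA replicate 1 and 2.

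**Figure D1:**
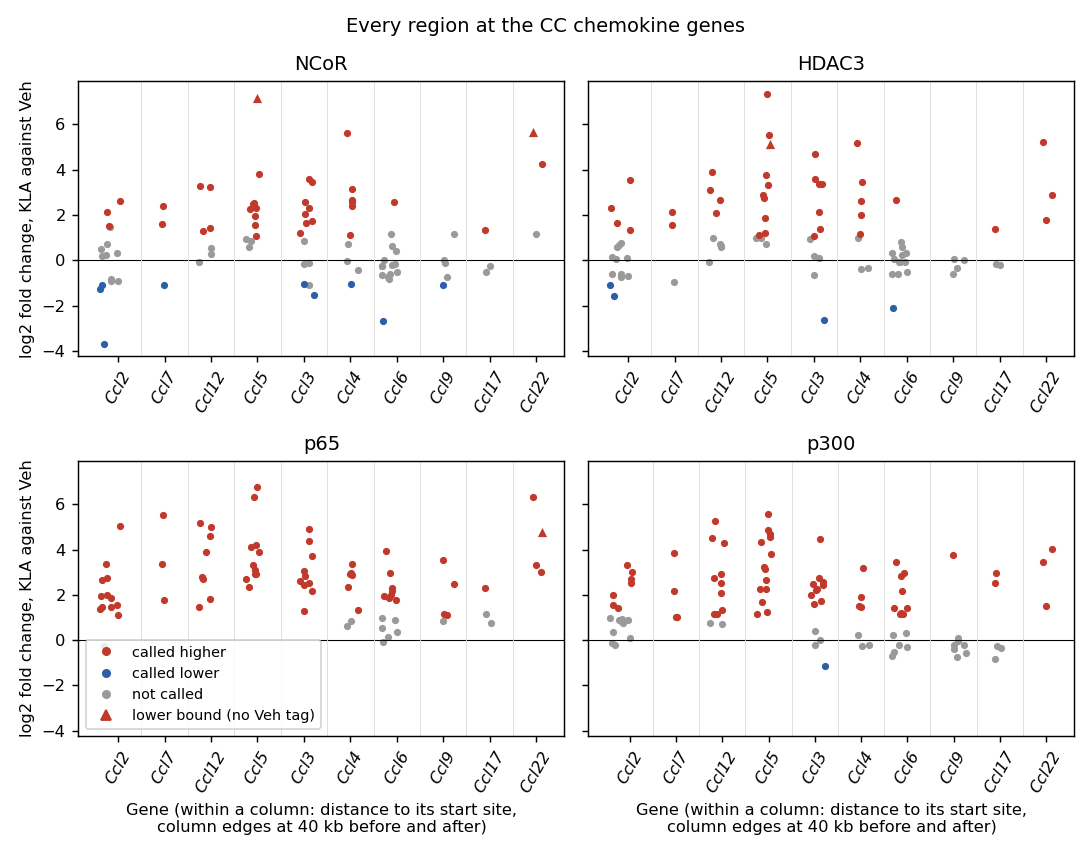
Log2 change from Veh to KLA (y axis) at every member region of the NCoR, HDAC3, p65 and p300 tables, 1 point per region, in a column per gene placed by distance to the TSS within 40 kb on either side. Red points were called higher, blue lower and grey neither, and triangles are lower bounds for regions with no Veh tag. NCoR and HDAC3 have calls in both directions, while 67 of the 79 p65 regions are red and none is blue.

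Of the 115 sites, 36 had a region in all 8 KLA tables and 16 in only 1 table of the 15. A pair of sites was called higher for all 8 proteins, the Ccl5 promoter and a site 1.5 kb upstream of Ccl12. A further 8 sites were called higher for 6 or 7 proteins. In all, 11 sites were called lower for at least 1 protein, 5 of them also higher for another, and 28 were called for none.

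The sequences on which the description turns are given here, read from GRCm38 on the + strand at the coordinates of a deposited region. They are the region with the lowest p among the NCoR decreases (Ccl6), a site far upstream of Ccl2 that was called lower for NCoR, and sites at Ccl7, Ccl5, Ccl3 and Ccl22 that gained several proteins. All but the Ccl6 region, which is in intron 5 of 8 of NR_036453, are annotated as intergenic. Apart from those at Ccl7, Ccl6 and Ccl22, they were chosen after their values were seen. Capitals mark matches on either strand to the AP-1 (TGANTCA), PU.1 (AGGAAGT), C/EBP (TTGCNNAA), IRF or NF-κB motif. The motifs were searched on both strands and can overlap each other.

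Ccl2 -24.7 kb (chr11:82010768-82010981, NCoR region, PU.1 motif): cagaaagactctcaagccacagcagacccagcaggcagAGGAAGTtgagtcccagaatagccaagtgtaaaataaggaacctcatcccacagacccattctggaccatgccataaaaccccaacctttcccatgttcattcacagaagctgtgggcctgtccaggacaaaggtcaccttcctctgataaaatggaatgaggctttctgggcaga
Ccl7 -3.6 kb (chr11:82041986-82042193, p65 region, C/EBP motif): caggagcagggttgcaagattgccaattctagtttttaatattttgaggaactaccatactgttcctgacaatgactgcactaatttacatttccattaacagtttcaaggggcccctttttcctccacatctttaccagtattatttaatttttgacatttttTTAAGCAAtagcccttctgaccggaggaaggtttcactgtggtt
Ccl5 -10.6 kb (chr11:83541035-83541285, p300 region, AP-1 motif, then IRF): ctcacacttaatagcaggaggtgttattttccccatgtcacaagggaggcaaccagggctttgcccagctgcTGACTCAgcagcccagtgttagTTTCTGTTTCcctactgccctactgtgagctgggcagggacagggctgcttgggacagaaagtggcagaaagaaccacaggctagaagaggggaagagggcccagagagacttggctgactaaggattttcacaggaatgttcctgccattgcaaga
Ccl3 +8.4 kb (chr11:83640906-83641109, p300 region, C/EBP motif): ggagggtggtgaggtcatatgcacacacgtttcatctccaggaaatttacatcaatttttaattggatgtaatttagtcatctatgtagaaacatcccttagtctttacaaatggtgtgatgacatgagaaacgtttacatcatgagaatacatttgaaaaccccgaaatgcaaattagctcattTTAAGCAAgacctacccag
Ccl6 -23.6 kb (chr11:83616577-83616876, the central 300 bases of the NCoR region, C/EBP motif): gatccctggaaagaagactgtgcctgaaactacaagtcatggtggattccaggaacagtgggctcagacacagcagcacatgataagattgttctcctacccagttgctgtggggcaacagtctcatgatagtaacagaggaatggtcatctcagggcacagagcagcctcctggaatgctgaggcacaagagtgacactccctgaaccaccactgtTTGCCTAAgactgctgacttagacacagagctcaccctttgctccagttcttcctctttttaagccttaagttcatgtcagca
Ccl22 -5.6 kb (chr8:94739939-94740146, NCoR region, NF-κB motif): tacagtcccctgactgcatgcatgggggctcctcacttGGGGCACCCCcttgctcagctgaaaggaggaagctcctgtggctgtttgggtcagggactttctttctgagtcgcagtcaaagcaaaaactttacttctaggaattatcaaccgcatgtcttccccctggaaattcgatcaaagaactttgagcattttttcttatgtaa

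Promoter sequences for 6 members were held in the RefSeq table, and those of Ccl2, Ccl4, Ccl5 and Ccl7 are named only. The 250 bases before the TSS are given on the gene's strand for Ccl12, whose promoter gained p65, and for Ccl9, whose promoter lost NCoR. The Ccl12 promoter held a PU.1 match starting at -228, and the Ccl9 promoter an AP-1 match at -53 and an NF-κB match at -35. The Ccl6 promoter held a PU.1 match at -48, and those of Ccl3, Ccl17 and Ccl22 held none of the 5 motifs.

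Ccl12 promoter (chr11:82101595-82101844, + strand): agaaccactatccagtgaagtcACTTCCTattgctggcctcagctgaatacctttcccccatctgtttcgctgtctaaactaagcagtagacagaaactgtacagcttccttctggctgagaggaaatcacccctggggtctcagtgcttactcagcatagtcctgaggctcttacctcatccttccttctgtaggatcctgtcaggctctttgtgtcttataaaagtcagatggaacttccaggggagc
Ccl9 promoter (chr11:83578637-83578886, - strand): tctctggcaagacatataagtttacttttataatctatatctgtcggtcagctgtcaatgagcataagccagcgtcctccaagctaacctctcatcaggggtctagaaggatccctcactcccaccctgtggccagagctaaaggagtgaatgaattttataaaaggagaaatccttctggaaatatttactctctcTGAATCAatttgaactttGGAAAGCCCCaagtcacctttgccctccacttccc

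The share of regions with a motif was compared with that of the table they came from. In windows of 200 bp at the region centres, an NF-κB match was present in 11 of 79 p65 member regions (13.9%) against 9.85% of all p65 regions. A PU.1 match was present in 24 of 60 PU.1 member regions against 35.5% of all PU.1 regions, and in 27 of 87 NCoR member regions against 25.6% of all NCoR regions, and an AP-1 match in 13 of 59 Fosl2 member regions against 28.8% of all Fosl2 regions. Over all 32851 promoters in the RefSeq table, in windows that run 50 bases past the TSS, the share with a match was 8.46% for NF-κB, 7.81% for AP-1, 3.44% for IRF, 9.35% for PU.1 and 10.8% for C/EBP.

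Promoter levels, compared per kb of region because regions differ in width, ordered the genes differently for resting and activated cells. In Veh, NCoR was highest at the Ccl2 promoter (1770 tags per 10 M per kb) and the Ccl3 promoter (1637), which overlapped between libraries, followed by Ccl9 (1318), Ccl6 (815), Ccl12 (663), Ccl4 (468), Ccl7 (228), Ccl17 (181) and Ccl22 (68.7). The Ccl5 promoter had no NCoR tag. Ccl6 and Ccl12, and Ccl7 and Ccl17, did not differ beyond the spread of their libraries, while the other neighbours in this order did not overlap. In KLA the order began with Ccl3 (1477), Ccl5 (1215), Ccl6 (1067), Ccl4 (999.8) and Ccl2 (930), and the libraries of the last 4 of these overlapped from neighbour to neighbour. Ccl12 (797) and Ccl9 (625) followed without overlap, then Ccl17 (153), Ccl22 (152) and Ccl7 (106). For p65 the Veh order was Ccl9 (402), Ccl3 (385), Ccl2 (273), Ccl6 (145), Ccl4 (139.9), Ccl17 (108), Ccl7 (48.1), Ccl12 (26.7), Ccl22 (23.1) and Ccl5 (17.1). Ccl9 and Ccl3 overlapped, as did Ccl6, Ccl4 and Ccl17, and the last 4 from neighbour to neighbour. In KLA the p65 order was Ccl3 (2066), Ccl5 (1943), Ccl4 (1061), Ccl9 (889), Ccl12 (869.5), Ccl2 (589.9), Ccl6 (505), Ccl22 (227), Ccl17 (181) and Ccl7 (162). Overlaps were between Ccl3 and Ccl5, among Ccl4, Ccl9 and Ccl12, between Ccl2 and Ccl6, and between Ccl17 and Ccl7. The Ccl5 promoter went from the last place to the second. The region taken for Ccl17 lies at about 1.5 kb, at the 3′ end of the gene, and no NCoR or p65 region lay nearer its TSS. That for Ccl9 lies at 1.4 kb for p65. Both had the most tags within 2 kb of the TSS. By the same rule the Ccl9 region lies at 1.4 kb in the HDAC3, Fosl2, PGC1β, ERK1 and p300 tables too, and the Ccl4 region at 1.2 kb in the Fosl2, PGC1β and ERK1 tables. For NCoR, HDAC3, p65, Fosl2 and p300 the Ccl6 region lies about 0.6 kb upstream of the TSS, beside another region at the TSS. The Fosl2 region at the Ccl4 TSS itself was called higher (2.28 ± 0.73, adjusted p 0.017), a call lost without either Veh library, while the one at 1.2 kb was not (-0.74 ± 0.70).

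**Figure D2:**
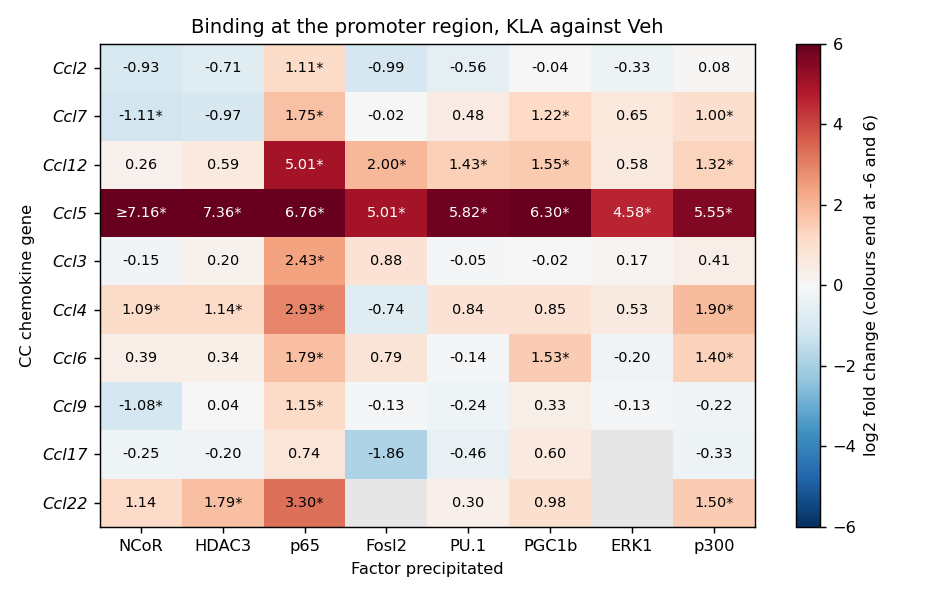
Log2 change in binding from Veh to KLA at the region with the most tags within 2 kb of the TSS of each CC chemokine gene (rows) for the 8 proteins (columns), coloured from blue (lower) to red (higher) with colours ending at -6 and 6. The region is off the TSS itself for Ccl17, for Ccl9 in 6 columns and for Ccl4 in the Fosl2, PGC1β and ERK1 columns. For Ccl6 it lies about 0.6 kb upstream in columns that include NCoR, HDAC3, p65, Fosl2 and p300. The Ccl5 row is the 1 that is strongly higher in every column, and in its NCoR cell a lower bound stands for the fitted value.

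The CCR2 ligand genes Ccl2, Ccl7 and Ccl12 gained p65 at 23 of their 24 regions after KLA with libraries scaled by their totals, beside 57.0% of all p65 regions. The site between Ccl2 and Ccl7, 3.6 kb upstream of Ccl7, had 0 and 7.46 p65 tags per 10 M in Veh and 170 and 176 in KLA (log2 change 5.54 ± 0.56 SE). At the same site NCoR went from 63.3 and 49.4 to 286 and 300 (2.38 ± 0.22, adjusted p 5.98e-05), HDAC3 from 70.6 and 78 to 260 and 400 (2.14 ± 0.38, not called without either Veh library), and p300 from 16.3 and 15.1 to 226 and 234 (3.87 ± 0.21). All KLA libraries lay above all Veh libraries for these 4 proteins. PGC1β there went from 11.8 and 12.1 to 122 and 64.6 (2.94 ± 0.39), ERK1 from 7.87 and 3.47 to 99.6 and 62.6 (3.87 ± 0.61), and Fosl2 from 66.3 and 41.9 to 184 and 311 (2.20 ± 0.74, not called without either Veh library). PU.1 at this site was 37.2 and 42.9 in Veh and 85.1 and 70.1 in KLA, without overlap but short of 2-fold.

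The promoter of Ccl12 gained p65 from 6.13 and 7.46 to 206 and 235 (5.01 ± 0.32, adjusted p 1.02e-06). NCoR at this promoter was 106 and 190 in Veh and 189 and 167 in KLA, so its groups overlapped and it was not called. PU.1 went from 49.6 and 66.6 to 159 and 151 (1.43 ± 0.14), p300 from 81.5 and 89.4 to 203 and 224 (1.32 ± 0.17, not called under TMM), and PGC1β from 37 and 32.1 to 138 and 68.1 (1.55 ± 0.34, not called without KLA replicate 1 or Veh replicate 2). The site 1.5 kb upstream of Ccl12 gained all 8 proteins. There NCoR rose from 3.58 and 12.9 to 80.2 and 77.5 (3.23 ± 0.48), HDAC3 from 10.2 and 22.1 to 97.3 and 111 (2.64 ± 0.43), and PU.1 from 12.9 and 12.4 to 83.1 and 68.2 (2.56 ± 0.24).

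The Ccl2 promoter differed from that of Ccl12. Its NCoR level was 527 and 747 in Veh and 356 and 314 in KLA, without overlap but short of 2-fold, and its HDAC3 level was 600 and 583 against 287 and 439. p65 at the Ccl2 promoter went from 59.5 and 55 to 108 and 140 (1.11 ± 0.27). That change was not called without KLA replicate 2, and it turned to -0.12 with TMM factors, so it did not exceed the shift of the whole p65 table. The Ccl7 promoter lost NCoR, from 63.3 and 74.2 to 34 and 29.7 (-1.11 ± 0.32, adjusted p 0.0174), a call that did not hold without NCoR KLA replicate 1 or 2 or Veh replicate 2.

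Far upstream of Ccl2, NCoR fell at 3 sites, and p65 was called lower at none of the Ccl2 regions. At -24.7 kb NCoR dropped from 100 and 95.3 to 8.91 and 6.22 (-3.69 ± 0.38, adjusted p 0.0001), and HDAC3 from 66.2 and 72.4 to 22.9 and 24.6 (-1.56 ± 0.44, not called without either Veh library). At -30.5 kb NCoR went from 275 and 324 to 137 and 109 (-1.28 ± 0.20) and HDAC3 from 350 and 307 to 120 and 195, and at -28.3 kb NCoR went from 581 and 690 to 312 and 291 (-1.07 ± 0.17, not called without Veh replicate 2). The p65 region beside the last of these, at -28.6 kb, rose from 14.9 and 47.5 to 201 and 192 (2.66 ± 0.38). Downstream of the gene, at 3.7 kb from the TSS, NCoR rose from 11.9 and 7.06 to 63.2 and 55.3 (2.63 ± 0.45), p65 from 3.5 and 0 to 64.1 and 60.2 (5.04 ± 0.69) and PU.1 from 18.6 and 23 to 83.7 and 83.5 (2.01 ± 0.21). The sites described here at -30.5, -24.7 and 3.7 kb of Ccl2 and at -1.5 kb of Ccl12 were chosen after their values were seen.

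Ccl5, a ligand of CCR1, had few tags at its promoter in Veh and gained every protein. In Veh its p65 and p300 libraries overlapped those of the Ccl22 promoter. NCoR had no tag at its promoter in either Veh library and 292 and 223 tags per 10 M in KLA, which is at least 143-fold against a floor of 3 counts over the Veh group. HDAC3 rose from 1.46 and 2.21 to 229 and 425 (7.36 ± 0.55, adjusted p 3.46e-36), p65 from 6.13 and 0.932 to 390 and 415 (6.76 ± 0.39, adjusted p 7.79e-07), and p300 from 4.39 and 10.5 to 346 and 355 (5.55 ± 0.25). No KLA library overlapped a Veh library at this promoter for any of the 8 proteins.

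PU.1, which is commonly bound before stimulation in macrophages, was nearly absent from the Ccl5 promoter in Veh and rose from 3.62 and 3.73 to 214 and 209 (5.82 ± 0.22, adjusted p 3.18e-52). Fosl2 rose from 12.7 and 5.24 to 221 and 350 (5.01 ± 0.87, not called without either Veh library), PGC1β from 1.76 and 0 to 80.8 and 56.6 (6.30 ± 0.65) and ERK1 from 0 and 5.78 to 52.9 and 110 (4.58 ± 0.80). Away from the promoter, p65 was called higher at all 10 other Ccl5 regions and p300 at all 13, with libraries scaled by their totals and beside 57.0% of all p65 and 42.1% of all p300 regions. At -10.6 kb p65 rose from 11.4 and 14 to 228 and 214 (4.12 ± 0.29) and PU.1 from 12.9 and 17.4 to 85 and 80.3 (2.46 ± 0.22). At -4.3 kb NCoR rose from 38.2 and 56.5 to 194 and 174 (1.95 ± 0.26). In the gene body PGC1β rose from 0 and 3.25 to 90.7 and 158 (6.07 ± 0.56) at 3.3 kb, the lowest p among its members. The regions at -10.6 and -4.3 kb were chosen after their values were seen.

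**Figure D3:**
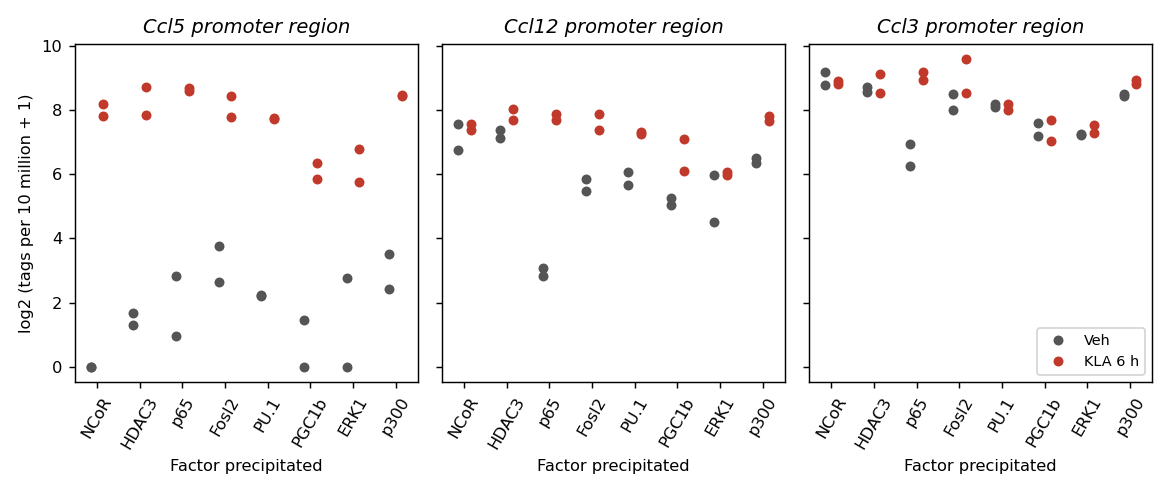
Promoter-region signal as log2 of tags per 10 M plus 1 (y axis) for each of the 8 proteins (x axis) at Ccl5, Ccl12 and Ccl3, 1 point per library, 2 Veh (grey) and 2 KLA (red) per protein. At Ccl5 every KLA point lies above every Veh point for all 8 proteins, while at Ccl3 the NCoR points overlap and the p65 points do not, and at Ccl12 the p65 points rise from 6.13 and 7.46 to 206 and 235 tags per 10 M.

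Ccl3 and Ccl4, which encode the macrophage inflammatory proteins 1α and 1β, share a stretch of chromosome with many bound sites. At the Ccl3 promoter NCoR was 440 and 585 in Veh and 446 and 479 in KLA, and it was not called. p65 there rose from 76.2 and 123 to 492 and 579 (2.43 ± 0.24). The Ccl4 promoter gained NCoR, from 127 and 122 to 270 and 262 (1.09 ± 0.19), p65, from 32.4 and 59.7 to 313 and 385 (2.93 ± 0.28), and p300, from 91.5 and 85.4 to 314 and 348 (1.90 ± 0.16). HDAC3 at the Ccl4 promoter rose from 114 and 122 to 206 and 320 (1.14 ± 0.37), a call lost under TMM and without KLA replicate 2 or either Veh library.

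The larger changes lay outside these promoters. Downstream of Ccl3, at 8.4 kb from its TSS, p65 went from 9.63 and 9.32 to 289 and 281 (4.90 ± 0.28), p300 from 12.5 and 15.8 to 319 and 309 (4.47 ± 0.21), NCoR from 2.39 and 22.4 to 164 and 136 (3.58 ± 0.51) and Fosl2 from 5.64 and 3.15 to 179 and 451 (6.15 ± 0.93, not called without either Veh library). Between the genes, at -6.4 kb of Ccl4, NCoR went from 3.58 and 0 to 98 and 87.8 (5.62 ± 0.62) and HDAC3 from 1.46 and 5.53 to 86.7 and 191 (5.16 ± 0.51). At 3.3 kb past the Ccl4 TSS NCoR rose from 19.1 and 14.1 to 100 and 75.4 (2.39 ± 0.37) and HDAC3 from 25.5 and 20.5 to 220 and 284 (3.45 ± 0.40). ERK1 had its lowest p at 2.4 kb of Ccl4, where it rose from 15.7 and 10.4 to 138 and 128 (3.36 ± 0.42), and at the 3′ end of Ccl3 it rose from 4.72 and 12.7 to 93.4 and 95.3 (3.35 ± 0.53).

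Decreases also occurred at these genes. NCoR was called lower at 0.9 kb inside Ccl3, from 127 and 150 to 68 and 64.3, and at 1.2 kb of Ccl4, from 156 and 214 to 90.7 and 89.2. At 18.1 kb downstream of the Ccl3 TSS, HDAC3 fell from 82.9 and 66.9 to 12.9 and 10.5 (-2.62 ± 0.48, adjusted p 5.91e-07), the lowest p among its decreases. NCoR there went from 62.1 and 81.2 to 25.1 and 24.9 (-1.51 ± 0.34, not called without KLA replicate 1 or 2), and p300 from 46.4 and 46 to 25.1 and 16.8 (-1.14 ± 0.34, not called without KLA replicate 2). At 14.2 kb PGC1β fell from 119 and 100 to 41.5 and 41.2 (-1.40 ± 0.29, not called without Veh replicate 1), the 1 member decrease called for PGC1β beyond 2-fold, while 2 NCoR regions of that site rose. The sites of Ccl3 and Ccl4 described away from the promoters were chosen after their values were seen, except those with the lowest p.

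Ccl6 and Ccl9, ligands of CCR1 that macrophages make without stimulation, had calls in both directions. At the Ccl6 promoter p65 went from 43.8 and 21.4 to 106 and 121 (1.79 ± 0.35), PGC1β from 25.9 and 27 to 96.1 and 58.9 (1.53 ± 0.35, not called without either Veh library) and p300 from 43.2 and 65.7 to 150 and 137 (1.40 ± 0.22). The p65 and p300 calls were lost under TMM. NCoR at the Ccl6 promoter was 164 and 218 in Veh and 217 and 282 in KLA and was not called. These p65, p300 and NCoR values are from the region about 0.6 kb upstream of the TSS. At the TSS itself p65 was 51.7 and 69 in Veh and 74.8 and 80 in KLA. p300 there was 117 and 62.4 in Veh and 77.8 and 69.7 in KLA, and NCoR 217.5 and 195.4 against 145.8 and 139. All 3 changes at the TSS were short of 2-fold.

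The strongest distal NCoR region of Ccl6, at -23.6 kb in an intron of NR_036453, fell from 578 and 699 to 94 and 108 (-2.66 ± 0.19, adjusted p 2.75e-05), the lowest p among the NCoR decreases. HDAC3 fell there from 591 and 505 to 96.1 and 167 (-2.09 ± 0.42, not called without either Veh library), and p300 was 198 and 238 against 156 and 144 and was not called. At -11.7 kb p65 rose from 26.3 and 31.7 to 216 and 239 (2.97 ± 0.25). The Ccl9 promoter lost NCoR, from 304 and 277 to 145 and 130 (-1.08 ± 0.19, not called without KLA replicate 2). At 1.4 kb past the Ccl9 TSS p65 went from 70.9 and 123 to 193 and 235 (1.15 ± 0.27), a change that was not called without KLA replicate 2 or Veh replicate 1 and turned to -0.07 with TMM factors.

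Ccl17 and Ccl22, the CCR4 ligand genes, carried the fewest regions with Ccl7. At 5.6 kb upstream of Ccl22, NCoR had no Veh tag and 86.7 and 93.4 tags per 10 M in KLA, at least 50.8-fold against the same floor. HDAC3 there rose from 4.37 and 2.21 to 107 and 139 (5.22 ± 0.53) and p65 from 1.75 and 0 to 81.5 and 75.2 (6.30 ± 0.67). At 10.9 kb past the Ccl22 TSS NCoR rose from 1.2 and 2.35 to 31.6 and 40.1 (4.25 ± 0.67, not called without KLA replicate 2) and p300 from 2.51 and 2.63 to 44.5 and 41.1 (4.02 ± 0.50). At the Ccl22 promoter p65 rose from 1.75 and 8.39 to 52.8 and 47.2 (3.30 ± 0.59) and HDAC3 from 14.6 and 13.3 to 43.4 and 54.4 (1.79 ± 0.51, not called without either Veh library). NCoR at this promoter was 15.5 and 16.5 in Veh and 34 and 36.7 in KLA and did not pass the threshold.

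At 7.9 kb upstream of Ccl17, p65 rose from 14 and 28 to 88.2 and 116 (2.29 ± 0.38), p300 from 22.6 and 29.6 to 146 and 151 (2.51 ± 0.23), HDAC3 from 82.2 and 59.7 to 155 and 216 (1.38 ± 0.36, not called without either Veh library) and NCoR from 71.7 and 28.2 to 127 and 123 (1.32 ± 0.36, not called without KLA replicate 1 or 2 or Veh replicate 2). At -5.7 kb PU.1 fell from 85.8 and 77.2 to 39.2 and 40.1 (-1.04 ± 0.18), the 1 member region called lower for PU.1, and that call did not hold under TMM or without Veh replicate 1. Without the 2-fold threshold, 18 PU.1 member regions had a negative and 27 a positive change at an unadjusted p under 0.05 in edgeR. The median over all PU.1 regions was -0.41 with libraries scaled by their totals. The p65 level inside Ccl17, at 1.5 kb, was 26.3 and 17.7 in Veh and 32.7 and 41 in KLA and was not called.

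The ERK inhibitor lowered NCoR in KLA-treated cells at 38 of 94 member regions and raised it at 2, against 48.6% of all NCoR regions lower and 0.634% higher. The member median was -0.97 and that of all regions -1.21. At the Ccl7 site at -3.6 kb NCoR was 286 and 300 with KLA and 62.5 and 82.7 with KLA and ERKi (-2.01 ± 0.23), at the Ccl5 promoter 297 and 238 against 124 and 88.8 (-1.33 ± 0.24), and at Ccl22 -5.6 kb 88.3 and 93.4 against 16.1 and 9.48 (-2.82 ± 0.44). The lowest p was at the Ccl6 promoter, about 0.6 kb upstream of the TSS. NCoR there went from 220 and 283 to 55.8 and 61.2 (-2.10 ± 0.23, edgeR adjusted p 7.41e-05), and 12 of the 16 Ccl6 regions fell. The 2 regions that rose lie upstream of Ccl2. At -24.7 kb, where KLA had lowered NCoR, the level was 12.2 and 6.22 with KLA and 31.3 and 22.4 with ERKi (1.56 ± 0.46), and at -23.6 kb it was 9.72 and 6.22 against 40.6 and 23.3 (2.00 ± 0.62). The NCoR libraries with KLA alone are the same 2 that were compared with Veh above. A change with KLA and an opposite change with ERKi share these libraries and are not independent.

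These NCoR decreases were mostly of the size of the shift of the whole table. TMM factors moved the median of all regions by 1.16, and with them 5 member regions rose and 2 fell (all regions 3.45% and 3.38%), while DESeq2 gave 7 and 2. Of the sites above, the Ccl22 site kept its call under TMM and the Ccl7 site, the Ccl5 promoter and the Ccl6 promoter did not. Without NCoR KLA replicate 1 the count of 40 fell to 23, and the increase at -24.7 kb was not called without KLA replicate 2 or ERKi replicate 1, and that at -23.6 kb without either KLA library or ERKi replicate 1. The ERKi libraries carry another date code than the NCoR libraries without inhibitor, and the inhibitor and the date cannot be told apart. At -4.3 kb of Ccl5 NCoR was 240 and 208 with ERKi against 245 and 212 without it.

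PGC1β was mapped a second time in cells given DMSO, and KLA raised it at 52 of 102 member regions and lowered it at none, against 16.4% and 1.23% of all regions. DESeq2 also gave 0 lower, and no region had a negative change at an unadjusted p under 0.05. TMM factors left 38 regions higher and 0 lower (all regions 8.71% and 2.89%), and the count fell to 34 without DMSO Veh replicate 1. In the body of Ccl5, at 3.4 kb, PGC1β rose from 4.06 and 1.46 to 94.7 and 128 (5.11 ± 0.43, adjusted p 2.2e-08), the lowest p. At Ccl3, at 1.9 kb, it rose from 37.4 and 70 to 205 and 213 (2.00 ± 0.27), and at Ccl4, at 1.5 kb, from 21.9 and 29.1 to 132 and 186 (2.67 ± 0.31). The 2 PGC1β experiments shared 64 sites, 56 of which changed in the same direction. Of these sites 31 were called in the first and 30 in the second, 24 of them in both.

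With ERKi given before KLA, PGC1β rose further at 7 of 102 member regions and was called lower at none. Over all regions 0.108% were higher and 0.178% lower. DESeq2 called no decrease either, though 15 regions had a negative change at an unadjusted p under 0.05. All 7 lie in or just past the bodies of Ccl5, Ccl3 and Ccl4. At Ccl5, at 3.4 kb, PGC1β went from 94.7 and 128 with DMSO and KLA to 522 and 474 with ERKi and KLA (2.15 ± 0.28, adjusted p 0.00178). At Ccl3 it went from 205 and 213 to 754 and 679 (1.77 ± 0.25) and at Ccl4 from 132 and 186 to 524 and 418 (1.56 ± 0.27). The libraries did not overlap at these 3 regions. TMM factors gave 11 higher (all regions 0.155%) and DESeq2 13, but with 1 library fewer the count was 0 without DMSO KLA replicate 1 or ERKi KLA replicate 1 and 2 without replicate 2 of either group. PGC1β at the Ccl2 and Ccl7 promoters was not called, with 107 and 96.8 against 125 and 93.1 at Ccl2 and 80.9 and 46.1 against 106 and 54.3 at Ccl7.

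**Figure D4:**
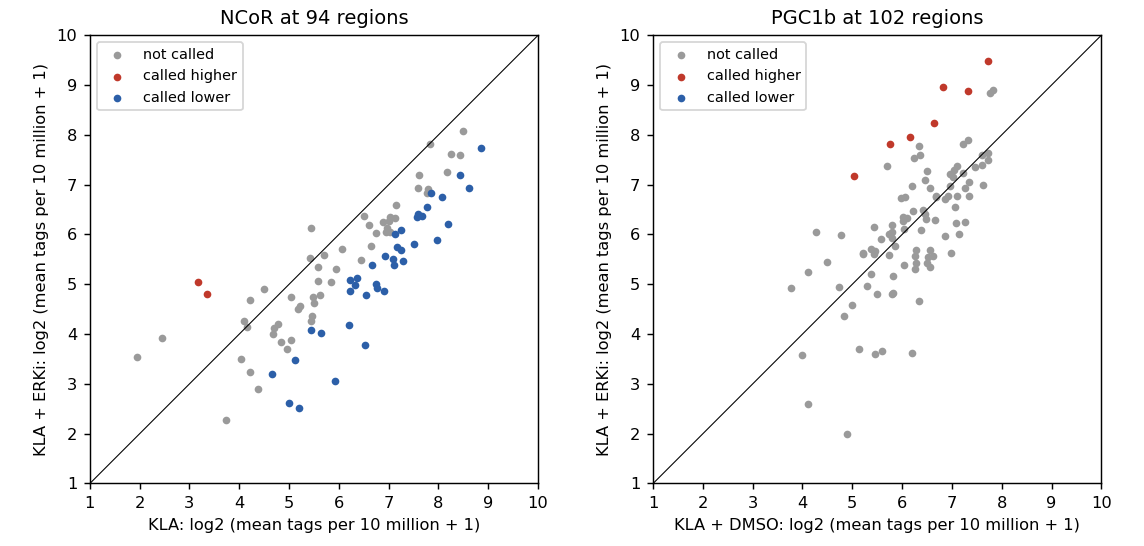
Mean signal of each member region with KLA alone (x axis) and with KLA and ERKi (y axis), as log2 of mean tags per 10 M plus 1, for NCoR (left, 94 regions) and PGC1β (right, 102 regions), 1 point per region and a line of equality. Most NCoR points lie below the line, with 38 called lower, and 7 PGC1β points were called higher and lie above it.

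ERK1 and p300 were also compared between day 0 and day 4 of osteoclast differentiation. ERK1 had 26 member regions and none was called at day 4 against day 0 (edgeR), beside 2.33% of all regions higher and 0.0267% lower. At an unadjusted p under 0.05 there were 3 higher and 1 lower, DESeq2 also called 0, and without Day0 replicate 1 the count was 1. The description of ERK1 Day4 replicate 2 carries another date code than the other ERK1 libraries of this comparison and another replicate number than its title. It also lacks the NCoRWT tag that the descriptions of those other libraries carry, though all are titled WT. Its part in the result was not tested. p300 rose at 9 of 22 regions and fell at none, against 62.2% and 0.248% of all regions, and DESeq2 and TMM called 0 (with TMM, 8.8% and 3.83% of all regions). At an unadjusted p under 0.05 there were 10 higher and 0 lower. The median of all p300 regions was 1.84 and that of the members 1.18, and the count was 1 without Day4 replicate 1 or replicate 2.

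Of the 9 p300 regions, 6 belong to Ccl2. At -28.3 kb of Ccl2 p300 went from 20.2 and 8.52 to 73.3 and 74.9 (2.22 ± 0.50), and at the Ccl9 promoter from 11.4 and 31.9 to 105 and 81.7 (2.27 ± 0.50). Both calls were lost under TMM, that at Ccl9 also without Day4 replicate 1 and that at Ccl2 without Day4 replicate 2. At the Ccl7 site at -3.6 kb p300 was 10.6 and 31.9 at day 0 and 24.4 and 27.2 at day 4, and at the Ccl3 promoter 54.5 and 51.1 against 91 and 64.7, neither called. Of the osteoclast markers, 5 of 6 had a promoter region in this p300 data set, and their summed level was 59.6 to 73.8 at day 0 and 505 to 557 at day 4, while 5 of 6 macrophage markers summed to 233 to 343 and 401 to 461. Their part in the p300 differences was not tested.

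H3K27ac over 1000-bp windows rose with KLA in DMSO-treated cells at 8 of 12 member windows and fell at 2, against 6.73% of all windows higher and 28.1% lower. The same 12 windows serve the Pgc1b comparisons below. Of these, 5 belong to Ccl2, all 5 called higher here, and Ccl4, Ccl6 and Ccl22 have none. The Ccl2 windows at 82006376-82007376 and 82006794-82007794 overlap and share tags, so the windows are not independent. The Ccl12 promoter window went from 22.4 and 34.9 to 359 and 326 (3.58 ± 0.25, adjusted p 1.57e-42). The Ccl5 window at -10.6 kb, which holds the sequence shown above, went from 4.15 and 13.1 to 200 and 164 (4.41 ± 0.32), and the window at the Ccl7 site at -3.7 kb from 16.6 and 11.3 to 231 and 179 (3.87 ± 0.29). At the Ccl2 promoter it rose from 11.6 and 17.4 to 57 and 48 (1.86 ± 0.33) and at -11.7 kb of Ccl2 from 36.5 and 41 to 181 and 167 (2.17 ± 0.25). The 2 windows that fell were downstream of Ccl9, from 299 and 240 to 118 and 88.4 (-1.37 ± 0.22, not called under TMM), and upstream of Ccl17 at -8.0 kb, from 29.1 and 32.3 to 15.5 and 5.89 (-1.45 ± 0.37, not called without DMSO KLA replicate 2). TMM factors moved the median of all windows by 0.42 and gave 8 higher and 1 lower (all windows 12.5% and 17.2%).

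RGFP966 given before KLA raised H3K27ac at 1 of 12 windows and lowered it at none, against 26.9% and 9.53% of all windows. That window was the Ccl17 one at -8.0 kb, which went from 15.5 and 5.89 to 65.8 and 56.2 (2.44 ± 0.34, adjusted p 1.69e-11). The libraries with DMSO and KLA are those compared with DMSO and Veh above, so its fall with KLA and its rise with RGFP966 are not independent. At the Ccl12 promoter H3K27ac was 359 and 326 with DMSO and 213 and 195 with RGFP966, at Ccl5 200 and 164 against 122 and 96.9, and at Ccl7 231 and 179 against 197 and 158. The Ccl12 and Ccl5 libraries did not overlap but the changes stayed under 2-fold, and neither window was called. With DESeq2 and with TMM factors 2 windows were called lower beside the 1 higher (with TMM, 18.9% and 16.1% of all windows). At an unadjusted p under 0.05 there were 6 higher and 2 lower. The summed H3K27ac level of the macrophage markers was 2117 to 2703 with DMSO and KLA and 1797 to 1997 with RGFP966, and its part in these values was not tested.

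In Pgc1b flox cells KLA raised H3K27ac at 5 of 12 windows and lowered it at 1 (all windows 5.22% and 25.6%), and in Pgc1b flox Cre cells it raised 2 and lowered 1 (4.18% and 32.5%). The Ccl12 promoter window rose in both, from 94.2 and 83.8 to 354 and 349 in flox cells (1.97 ± 0.13) and from 90.4 and 70.3 to 238 and 230 in Cre cells (1.53 ± 0.14). The Ccl5 window also rose in both, from 26.9 and 22.9 to 246 and 282 (3.39 ± 0.18) and from 21.8 and 20.6 to 223 and 192 (3.28 ± 0.19). The Ccl17 window fell in flox cells from 52.2 and 59.6 to 25.1 and 21.7 (-1.25 ± 0.28) and in Cre cells from 59.9 and 52.4 to 20.2 and 28, and the flox call was lost under TMM. With TMM factors, which moved the median of all windows by 0.43 and 0.61, there were 7 higher in flox cells and 2 in Cre cells (all windows 9.84% and 10.8%) and none lower in either (13.8% and 14.3%).

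The response to KLA was called different between the genotypes at 2 windows, both lower in Cre cells. Of all windows, 4.6% had a lower and 0.77% a higher response. At the Ccl2 promoter H3K27ac rose in flox cells from 30.3 and 25.6 to 71.6 and 96.1 (1.57 ± 0.25), whereas in Cre cells it was 45.5 and 37.8 in Veh and 21.7 and 32.6 in KLA. The difference between the responses was -2.19 ± 0.37 (edgeR, adjusted p 1.65e-07). At the Ccl7 window it rose in flox cells from 25.8 and 38.1 to 152 and 165 (2.33 ± 0.21) and was 34.9 and 43.8 in Veh and 39.7 and 52.8 in KLA in Cre cells, a difference of -2.08 ± 0.32 (edgeR, adjusted p 4.63e-09). At the Ccl12 and Ccl5 windows the difference was not called. The other Ccl2 windows also had a lower response in Cre cells, short of 2-fold. The difference was -0.97 ± 0.14 at -28.3 kb (edgeR, adjusted p 9.26e-11) and -0.99 ± 0.18 at -30.7 kb (edgeR, adjusted p 1.73e-06). At an unadjusted p under 0.05 in edgeR there were 9 windows lower, among them the overlapping pair upstream of Ccl2, and 0 higher. Without Cre KLA replicate 2 or Cre Veh replicate 1 the count of 2 became 4.

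Within KLA, Cre cells had less H3K27ac than flox cells at 3 windows and more at none (all windows 6.81% and 0.702%). These were the Ccl7 window (-1.77 ± 0.20), the Ccl2 promoter (-1.62 ± 0.25) and the Ccl2 window at -30.7 kb, with 259 and 262 in flox and 118 and 124 in Cre cells (-1.10 ± 0.13, not called under TMM). DESeq2 also gave none higher, and at an unadjusted p under 0.05 there were 11 lower and 0 higher. In Veh no window was called (edgeR and DESeq2), beside 0.107% of all windows higher and 0.29% lower, and 1 had an unadjusted p under 0.05. The summed H3K27ac level of the 6 macrophage markers moved with this comparison: it was 1249 to 1277 in Cre cells with KLA, 2302 to 2399 in flox cells with KLA, 2167 to 2291 in flox Veh and 2062 to 2074 in Cre Veh. Its part in the Ccl2 and Ccl7 differences was not tested. H3K27ac windows do not check that Pgc1b or NCoR was deleted.

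**Figure D5:**
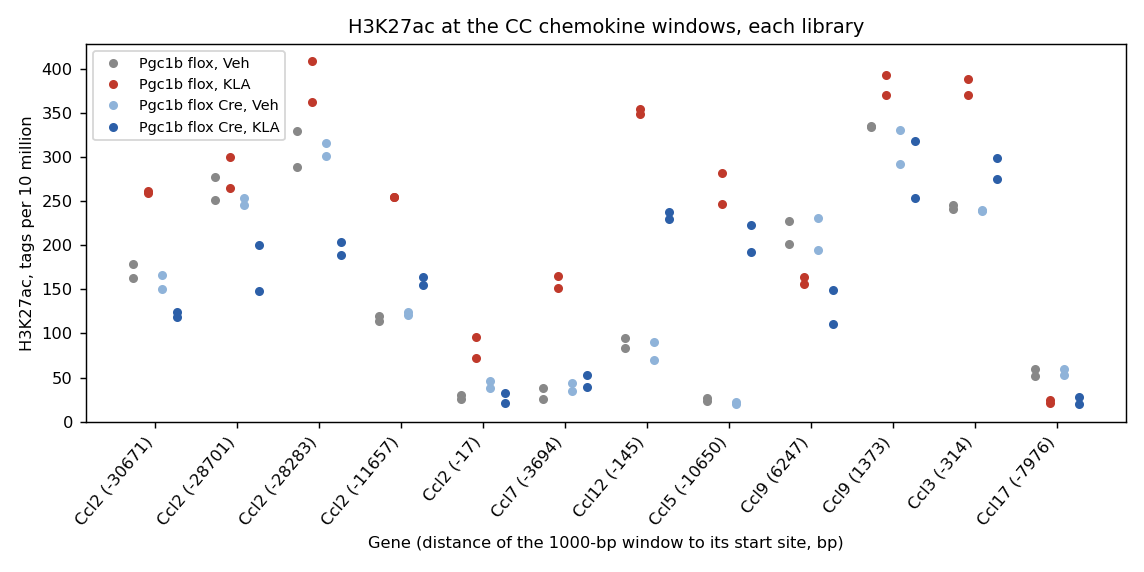
H3K27ac in tags per 10 M (y axis, from 0) at the 12 member windows (x axis, named by gene with the distance to the TSS in bp), 1 point per library, for Pgc1b flox and Pgc1b flox Cre cells with Veh or KLA, 2 libraries per group. The flox KLA points stand apart from the other groups at the Ccl7 window (152 and 165), whereas at the Ccl5 window the KLA points of both genotypes are high.

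In the NKO table regions were narrower (median 259 bp against 1001 bp) and member signal per region was lower. There 10 of the 11 member regions passed the filter. Of the 11, 6 belong to Ccl2, and Ccl5, Ccl6, Ccl7, Ccl9 and Ccl22 have none. The Ccl12 region lies at -1.5 kb, outside the promoter window that rose with KLA in the other H3K27ac tables. KLA raised H3K27ac in WT cells at 1 of the 10 tested regions and lowered none (all regions 6.49% and 3.72%). It was the region 9.0 kb past the Ccl3 TSS, with 30.9 and 31.6 in Veh and 75.5 and 88.2 in KLA (1.39 ± 0.26, adjusted p 0.000102). In NKO cells this region held 89.2 and 45.9 in Veh and 78.6 and 88.2 in KLA, and no member was called with KLA (2.75% and 7.96% of all regions). In Veh, NKO cells were higher than WT cells at 2 regions and lower at none (0.973% and 0.027%). These were the Ccl3 region (1.09 ± 0.26) and the Ccl2 region at -11.7 kb, with 8.2 and 7.64 in WT and 43.5 and 33.7 in NKO (2.27 ± 0.44), and neither was called without NKO Veh replicate 1 or either WT Veh library. The macrophage markers with a region summed to 184 to 212 in WT Veh and 248 to 256 in NKO Veh, and their part was not tested.

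With KLA, none of the 10 tested regions was called different between NKO and WT (edgeR, 0.4% of all regions higher and 0.389% lower). The Ccl7, Ccl5 and Ccl12 promoter windows that rose with KLA in the other H3K27ac tables are not covered by this comparison. The response to KLA was called different at none either (0.027% higher and 0.67% lower), and at 1 without NKO Veh replicate 2. For these comparisons DESeq2 also called 0. At an unadjusted p under 0.05 there were 0 members for NKO against WT with KLA, 1 lower for KLA in NKO cells, 4 lower for the response, and for the counts of 0 lower in WT cells with KLA and in NKO Veh there were none. The 2 KLA experiments over 1000-bp windows in cells without Cre, DMSO and Pgc1b flox, shared 11 sites, 10 of which changed in the same direction and 6 of which were called in both, out of 9 and 6.

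Other genes of the family were read in the same fits. For the 11 other CC chemokine genes, p65 rose at 13 of 17 regions, p300 at 14 of 22 with 1 lower, NCoR at 6 of 20 with 2 lower, HDAC3 at 6 of 19, PGC1β at 10 of 20 and PU.1 at 1 of 9 with 1 lower. The shares higher over all regions were 57.0% for p65, 42.1% for p300, 23.4% for NCoR, 27.5% for HDAC3, 16.4% for PGC1β and 4.53% for PU.1, and the shares lower 12.9% for p300, 16.7% for NCoR and 21.7% for PU.1. With so few regions, nothing particular to these genes is read from the counts. Ccl8 and Ccl11, which encode further CC chemokines from the same stretch of chromosome 11 as Ccl2, were among those with higher p65, NCoR, HDAC3, PGC1β and p300, and Ccl11 and Ccl1 also had a region with lower NCoR. With ERKi, NCoR fell at 9 of the 23 regions of these genes in that table, against 48.6% of all its regions.

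Of the members, 8 had a promoter region in all 8 KLA tables and were compared with 1745 genes by the Euclidean distance over the 8 promoter log2 changes. The nearest genes were Nfkbid (0.72) and Cd300lf (0.74) for Ccl2, Mir1927 (0.72) and Lilr4b (0.76) for Ccl3, Pitpnc1 (0.67) and Gm32511 (0.73) for Ccl6, and Spp1 (0.51) and Atp6v0a1 (0.55) for Ccl9. For Ccl7 they were Ms4a6d (1.25) and Rffl (1.29), for Ccl4 Cdk4 (1.34) and Lrrfip2 (1.71), and for Ccl12 Snx10 (1.68) and 1700055D16Rik (1.93). Ccl5 had no gene nearer than Fpr1 (4.89) and Mir155hg (7.39), and its distances use a fitted NCoR value that depends on the prior count because Veh had no tag. Those of Ccl4, Ccl6 and Ccl9 use the regions away from the TSS for the proteins named above. The distances cover 8 pairs of groups that share cells and depth within a protein and are a description only.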

How the data were processed

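ChIP-seq was made from BMDMs and bone marrow cells, and 70 libraries in 35 groups of 2 have a column in 15 tables. The 30 input samples have none. The deposited values are raw tag counts per region: per the labels and published methods, the authors mapped reads to mm10 with Bowtie2, called peaks with HOMER, kept reproducible peaks, merged them and counted tags. Versions are not given in the sources used here. Per the published methods, H3K27ac was counted over either accessible regions or transcription factor peaks. The regions have their own widths in the NKO table and are 1000-bp windows in the others. No deposited column was left unused (0).

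Regions needed at least 4 tags (H3K27ac 16) in 1 or more libraries, and 5 tests at 1 Ccl17 region were left out by this. Counts were fitted per table with edgeR 4.0.16 in R 4.3.3 (glmQLFit, two-sided glmQLFTest), with library size set to the total tags in the column header. Benjamini-Hochberg adjustment ran over all tested regions of the table. Calls needed an adjusted p under 0.05 and more than 2-fold. DESeq2 1.42.0, TMM factors, no filter, a replicate block and leaving out each library were alternatives. The fit was tested on simulated data. Bounds use a floor of 3 counts over the group and cover counting error only.

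The members and gene lists were chosen with earlier results of these data known. Counts over the chemokine receptor genes are not reported here. Named regions are, per gene and table, the region with the most tags within 2 kb of the TSS, that with the most tags beyond it, and the called region with the lowest p in each direction. Replicates of a group differed by more than counting noise in all groups (chi-square per region 1.31 to 3.96).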

Additional observations from a re-analysis of the deposited data

Results flagged for a closer look

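The H3K27ac response to KLA was called different, beyond 2-fold, between Pgc1b flox and Pgc1b flox Cre cells at 2 of the 12 member windows. The difference itself was tested in edgeR with 2 libraries per group. At an unadjusted p under 0.05 the response was lower in Cre cells at 9 windows, among them an overlapping pair upstream of Ccl2, and higher at 0. At the Ccl2 promoter the difference of the log2 responses was -2.19 (SE 0.37, adjusted p 1.65e-07), with higher H3K27ac after KLA in the 2 flox libraries and lower H3K27ac in the 2 Cre libraries. At the Ccl7 window, 3.7 kb upstream of the TSS, it was -2.08 (SE 0.32, adjusted p 4.63e-09). The summed H3K27ac of the macrophage markers was 1249 to 1277 in Cre KLA libraries and 2302 to 2399 in flox KLA libraries, and its part was not tested.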

How the results depend on the processing

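Calls were counted over the member regions with each alternative. A replicate block, for samples that share only a number (the deviations of same-numbered samples correlated at -0.027 to 0.026), lowered the Fosl2 count from 16 to 8, changed 3 of 112 named calls and moved no other count by over 1.5 times. Dropping the filter moved none. With DESeq2 and TMM factors, respectively, the p65 count went from 67 to 42 and 43, PU.1 from 10 to 18 and 18, NCoR with ERKi from 40 to 9 and 7, PGC1β with ERKi from 7 to 13 and 11, p300 at day 4 from 9 to 0 and 0, NKO against WT in Veh from 2 to 1 and 1, and RGFP966 from 1 to 3 and 3. DESeq2 moved Fosl2 to 25. At the p65 regions of Ccl2 (promoter) and Ccl9 (1.4 kb), the log2 changes of 1.11 and 1.15 turned to -0.0892 and -0.0337 with DESeq2 and to -0.122 and -0.0693 with TMM, which centre the table. Of the 112 named calls, 96 stayed called, 14 were no longer called and 2 reversed, with either tool.

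Without 1 library, counts ranged from 23 to 50 for NCoR, 22 to 48 for HDAC3, 0 to 28 for Fosl2, 19 to 43 for PGC1β, 14 to 26 for ERK1, 23 to 39 for NCoR with ERKi, 34 to 45 for PGC1β in DMSO, 0 to 2 for PGC1β with ERKi, 0 to 1 for ERK1 at day 4, 1 to 13 for p300 at day 4, 0 to 2 for NKO against WT in Veh, 0 to 1 for the NKO response and 2 to 4 for the Pgc1b flox Cre response. Without any 1 library 79 named calls held, and 33 were lost without at least 1; the cause was not tested. The shallowest libraries, Fosl2 KLA replicate 1 with 4.30 M tags and p300 day 0 replicate 2 with 4.70 M, have the largest counting error.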
